A study of Mus musculus with 3 samples.

Results

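The regions described here were stretches of the genome enriched in F123 mouse embryonic stem cells for Pol2-S7p, the RNA polymerase II that carries a phosphate at serine 7 of its C-terminal domain, with neither of the other marks mapped in the same cells. They were the rows of the Pol2-S7p region list that shared no base pair with any region of the Pol2-S5p list (polymerase phosphorylated on serine 5) or of the H3K27me3 list (the histone mark of Polycomb repression). They were thus chosen by the called positions in all 3 lists, and their lack of the other marks is no finding. The rule was met by 1498 of 22320 Pol2-S7p regions (6.71%), out of 68884 regions over the 3 lists. F123 is a male hybrid line from a cross of S129/Jae and Cast. The cells were grown on inactivated feeder fibroblasts and then for at least 2 passages without feeders in medium with more LIF, and they received no other treatment. Pol2-S5p was precipitated with a mouse monoclonal antibody, Pol2-S7p with a rat monoclonal antibody and H3K27me3 with a rabbit antibody, each in 1 library, so that no value has a replicate and none was tested.

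The C-terminal domain of the largest polymerase subunit is a long array of repeats whose serines are phosphorylated and dephosphorylated through the transcription cycle. Serine 5 phosphorylation is known from initiating and paused polymerase and from Polycomb-bound promoters of embryonic stem cells. Serine 7 phosphorylation is placed by the same early kinase, is found over actively transcribed genes, and is needed for small nuclear RNA genes, where it helps to recruit the Integrator complex. A region with Pol2-S7p and without Pol2-S5p was therefore a place where the more widespread initiating form was not called by the peak finder, whose threshold was applied to each library separately. Absence from a list is not absence of the mark. Read counts and sequencing depth were not used here, and the intervals given after shares are exact Clopper-Pearson intervals at 95% that cover the counting of regions only.

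The middle 200 bp of the highest-scoring region of each place in the gene annotation, leaving out windows over exons and 1 chromosome not shown here, are printed to show what the signal lay on. Positions are in GRCm38 (mm10), the plus strand is shown, and sequences come from the RefSeq reference chromosomes. The first (chr4:146975200-146975399) comes from a region of 9 kb that touches the promoter window of the zinc finger gene Zfp989. Its printed middle lies inside the gene, which starts at 146971976, and its label names the place of the whole region. The second lies in the body of Tbccd1, a gene for a centrosome protein (chr16:22816700-22816899). The third lies after the end of 3010003L21Rik (chr6:148956500-148956699). The next 2 lie upstream of Apela, which encodes a small peptide hormone of embryonic stem cells (chr8:65046600-65046799), and away from genes (chr16:3121400-3121599). The last (chr19:44266800-44266999) was chosen after its values were seen, as the highest-scoring CpG-rich region away from genes. Capitals mark CpG dinucleotides, except in the Tbccd1 and Apela sequences, where they mark a 12-base word that recurs.
Zfp989 promoter: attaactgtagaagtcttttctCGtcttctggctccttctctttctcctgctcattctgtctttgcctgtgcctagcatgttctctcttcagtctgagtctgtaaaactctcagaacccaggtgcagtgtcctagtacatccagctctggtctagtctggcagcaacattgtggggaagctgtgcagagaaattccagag
Tbccd1 body: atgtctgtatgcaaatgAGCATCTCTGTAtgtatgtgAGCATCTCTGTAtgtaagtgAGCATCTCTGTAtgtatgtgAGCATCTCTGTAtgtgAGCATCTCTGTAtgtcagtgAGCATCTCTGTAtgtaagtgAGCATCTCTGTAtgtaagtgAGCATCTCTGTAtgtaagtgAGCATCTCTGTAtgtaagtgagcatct
3010003L21Rik after the end: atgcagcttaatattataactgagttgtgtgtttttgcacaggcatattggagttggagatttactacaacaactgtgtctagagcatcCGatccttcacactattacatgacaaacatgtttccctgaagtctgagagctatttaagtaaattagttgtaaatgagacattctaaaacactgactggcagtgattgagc
Apela upstream: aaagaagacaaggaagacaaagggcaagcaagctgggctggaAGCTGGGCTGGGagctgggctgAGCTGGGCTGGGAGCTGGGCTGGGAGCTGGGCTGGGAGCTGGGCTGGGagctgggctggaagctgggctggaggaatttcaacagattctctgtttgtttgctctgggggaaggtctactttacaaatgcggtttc
chromosome 16 away from genes: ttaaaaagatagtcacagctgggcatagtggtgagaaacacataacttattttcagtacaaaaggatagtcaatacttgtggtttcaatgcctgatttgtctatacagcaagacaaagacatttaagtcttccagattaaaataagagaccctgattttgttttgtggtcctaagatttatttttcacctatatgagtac
chromosome 19 away from genes: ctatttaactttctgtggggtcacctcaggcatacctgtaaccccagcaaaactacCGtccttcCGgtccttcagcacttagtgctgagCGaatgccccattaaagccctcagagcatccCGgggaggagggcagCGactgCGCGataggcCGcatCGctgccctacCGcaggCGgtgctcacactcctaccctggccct

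These windows were of unlike make-up. The Tbccd1 window carried its 12-base word 9 times, and 83.6% of all its 12-base words recurred. The Apela window carried its word 5 times, and 45.5% recurred. The Zfp989 and 3010003L21Rik windows held 1 CpG each. The chromosome 16 window held 0. Of the stretches of 75 bases searched, 66.7% occur more than 1 time in the reference for the chromosome 16 window and 33.3% for the Zfp989 window. The chromosome 19 window held 11.

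The regions were narrow and low in the Pol2-S7p list. Their median width was 1200 bp (quartiles 600 and 2400 bp), against 2400 bp for the 11667 Pol2-S7p regions that also touched Pol2-S5p and not H3K27me3, and 2600 bp for the 8649 that touched both marks. The width bears on the rule, since a wide region has more chances to touch another list. Their median score, a value of the authors' peak finder with no stated unit, was 7.09 (quartiles 5.30 and 9.94) against 14.2 with Pol2-S5p and 12.7 with both marks. The 506 regions with H3K27me3 alone were closer, with a median width of 1000 bp and a median score of 7.78. The lower score was present at every width. Among regions up to 600 bp the medians were 6.98 without Pol2-S5p and 22.4 with it, and among those over 2400 bp they were 6.78 and 10.7.

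**Figure D1:**
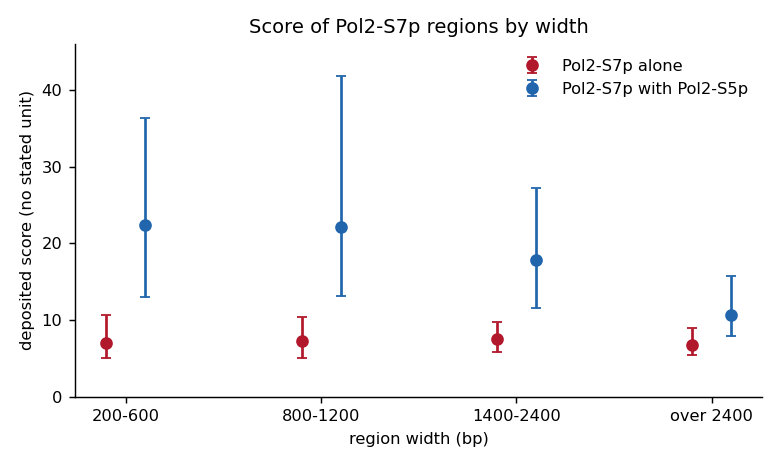
Deposited score (vertical axis, no stated unit) of Pol2-S7p regions in 4 classes of width in bp (horizontal axis), for regions with no other mark (red) and for regions with Pol2-S5p and without H3K27me3 (blue). Points are medians and bars run between the quartiles; the red medians lie between 6.78 and 7.49 in all 4 classes and the blue ones between 10.7 and 22.4.

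Few regions lay at the edge of the rule. Of the 1498, 17 abutted a region of another list, 30 lay within 200 bp of one and 74 within 1 kb. Just outside the rule, 93 Pol2-S7p regions shared at most 200 bp with another list, with a median width of 200 bp and a median score of 5.61, while the 30 just inside had medians of 1000 bp and 5.86. The rule asked for a whole region to be free of the other marks, and so it left out most of the Pol2-S7p signal that lay outside them. Pol2-S7p regions covered 261 Mb, of which 39.1 Mb lay in neither other list, and the 1498 regions made up 3.42 Mb, or 8.75% of that free length. The nearest other Pol2-S7p region was at a median of 18300 bp, the nearest Pol2-S5p region at 17600 bp and the nearest H3K27me3 region at 48800 bp. Within 5 kb of another Pol2-S7p region lay 379 regions (25.3%, 23.1 to 27.6%), beside 21.8% of Pol2-S7p regions with Pol2-S5p and 19.1% of those with both marks. Of the Pol2-S5p regions with no other mark, 15.7% lay as close to another region of their own list. The nearest neighbour in the Pol2-S7p list carried Pol2-S5p without H3K27me3 in 57.3% of cases, both marks in 24.4%, and no other mark in 15.6%.

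All 1498 regions were placed in the annotation, in a fixed order of classes. A total of 141 (9.41%, 7.98 to 11.01%) touched a 2-kb promoter window around a start of a protein-coding or long noncoding RNA gene. A further 629 (42.0%, 39.5 to 44.5%) lay in a gene body, 215 (14.4%, 12.6 to 16.2%) within 10 kb after a gene end, 53 (3.54%) within 10 kb before a start, and 460 (30.7%, 28.4 to 33.1%) elsewhere, where the Pol2-S5p regions alone had 39.8%. The promoter share was far below the 44.4% of Pol2-S7p regions with Pol2-S5p and near the 10.1% of the 5140 Pol2-S5p regions with no other mark. The share after gene ends was above both the 6.65% of Pol2-S7p regions with Pol2-S5p and the 7.00% of Pol2-S5p regions alone. The 506 Pol2-S7p regions with H3K27me3 alone, which were like the regions in width and score, had 9.49% in promoter windows and 8.70% (6.39 to 11.5%) after gene ends, and up to 600 bp they had 9.87% after ends. In the 4 width classes the share after gene ends was 10.8%, 15.9%, 14.8% and 16.2%, against 5.63% to 8.18% with Pol2-S5p and 6.49% to 8.51% for Pol2-S5p alone. By score, of the 1304 regions at or below the median score of the whole Pol2-S7p list, 15.1% (13.2 to 17.2%) lay after a gene end, against 8.34% (7.59 to 9.13%) with Pol2-S5p. Of the 194 above it, 9.28% (5.59 to 14.3%) did, against 5.33% (4.80 to 5.91%), and those intervals overlap. The places also depended on the rule. Where a Pol2-S7p region counted as marked only with at least 50% of its length in the other lists, 3639 were free, with 28.9% in promoter windows and 8.66% after gene ends. Where the other lists were kept only above their median scores, 8017 were free, with 35.5% and 9.68%.

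**Figure D2:**
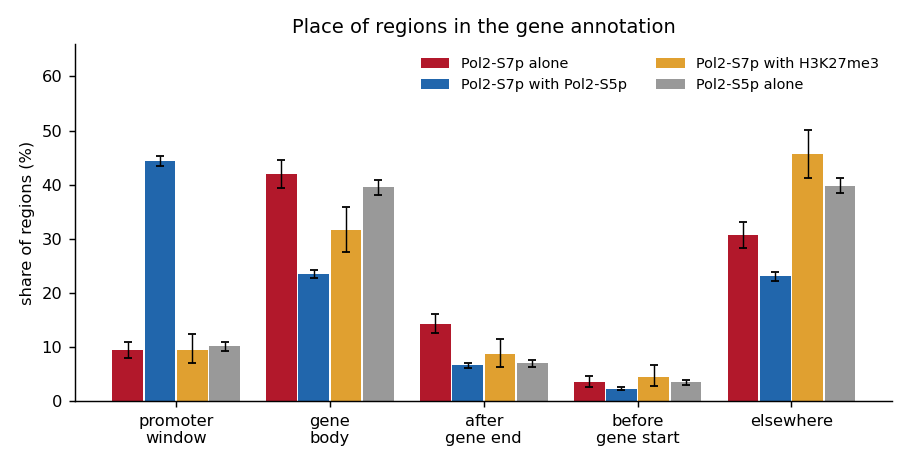
Share of regions (vertical axis, percent) in 5 places of the gene annotation (horizontal axis) for Pol2-S7p regions with no other mark (red), Pol2-S7p regions with Pol2-S5p and without H3K27me3 (blue), Pol2-S7p regions with H3K27me3 and without Pol2-S5p (orange) and Pol2-S5p regions with no other mark (grey). Bars start at 0 and whiskers are exact intervals at 95%; red stands at 14.4% after gene ends, above 6.65%, 8.70% and 7.00%, and at 9.41% in promoter windows, below the 44.4% of blue and near the 9.49% of orange.

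The regions after gene ends began at a median of 2530 bp from the end of the gene (quartiles 892 and 5052 bp), and 160 of 215 (74.4%) lay within 5 kb. The gene was protein-coding in 176 cases (81.9%). Its promoter was Active, with Pol2-S5p and Pol2-S7p and no H3K27me3, in 115 (53.5%), and PRCa, with all 3 marks, in 33. In 52 (24.2%) it carried no mark (Inactive). Over all protein-coding genes 35.9% were Active, 23.9% PRCa and 23.5% Inactive, and over protein-coding and long noncoding RNA genes together 29.1%, 18.8% and 34.4%. By their placement these regions did not touch the gene itself, and a separate Pol2-S7p region lay over its last 200 bp in 30 of the 215 (13.95%). The highest scores were 28.3 after 3010003L21Rik, 17.97 after Ppwd1 and Trim23, which both end within 10 kb of it, 17.8 after Ndufa4, a gene for a subunit of the respiratory chain, 17.6 after Cdca7, a gene for a chromatin protein of dividing cells, and 17.4 after Pitpnc1, a gene for a phosphatidylinositol transfer protein. These genes, and others named outside the naming rule below, were chosen after their values were seen.

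The 629 regions in gene bodies were each given to 1 host gene, a protein-coding one where there was a choice. The hosts were 565 genes, of which 511 held 1 region, 47 held 2 and 7 held 3 or more. The host genes had a median length of 88.3 kb, against 92.7 kb with Pol2-S5p, 138.2 kb with H3K27me3 alone and 121.2 kb for Pol2-S5p alone. The promoter of the host was Active for 302 regions (48.0%, 44.1 to 52.0%), against 42.8% for Pol2-S7p body regions with Pol2-S5p. It was PRCa for 23.5%, Inactive for 13.04% and PRCr, with H3K27me3 and Pol2-S5p alone, for 6.04%. With Pol2-S5p those shares were 23.2%, 13.9% and 9.21%. Of the summed length of all genes, 29.2% was in Active genes, 27.3% in PRCa, 19.7% in Inactive and 13.2% in PRCr genes. The host promoter carried Pol2-S7p alone for 2.86% of the regions, against 0.910% with Pol2-S5p. With the host cut into 5 equal parts from start to end, these held in turn 17.5%, 18.1%, 18.4%, 17.3% and 28.6% (25.1 to 32.3%) of the regions. The last part held 33.7% of Pol2-S7p body regions with Pol2-S5p and 20.97% of Pol2-S5p regions alone. An exon was touched by 28.5% of the regions, against 34.6% with Pol2-S5p and 21.2% for Pol2-S5p alone.

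**Figure D3:**
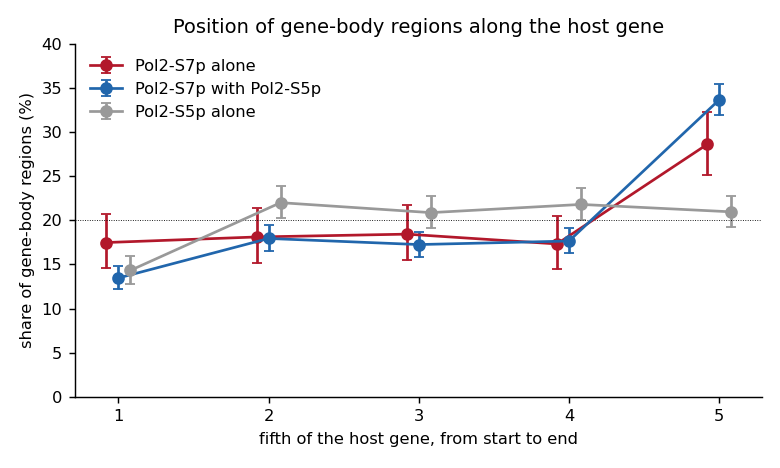
Share of gene-body regions (vertical axis, percent) in 5 equal parts of the host gene from start to end (horizontal axis) for the 3 kinds of region named in the legend, with exact intervals at 95%. The dotted line marks an even spread of 20%; regions with Pol2-S7p alone stand at 28.6% in the last part and between 17.3% and 18.4% in the others.

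Among protein-coding genes of at least 10 kb with an Active promoter, the 239 with such a region in the body had a median of 5.48% of the body in Pol2-S5p regions and 12.4% in Pol2-S7p regions, at a median length of 75.6 kb. The 5721 without one had medians of 66.9% and 82.3% at 30.7 kb. The rule itself sets part of this contrast, because a gene covered throughout by Pol2-S5p cannot hold a Pol2-S7p region free of it.

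Over the annotation, 1.55% of 55413 genes, 2.79% of 21938 protein-coding genes and 1.14% of 13374 long noncoding RNA genes had a region in the body or the promoter window. The share was 3.8% of protein-coding genes with an Active promoter, 2.84% with a PRCa promoter, 2.2% with a PRCr promoter, 0.985% with H3K27me3 alone and 0.971% with an Inactive promoter. It was 4.81% of those with Pol2-S5p alone on the promoter. It was 42.7% (38 of 89) of those with Pol2-S7p alone, where the rule fixes part of the count. The cells were checked by markers. All 10 embryonic stem cell genes examined, among them Pou5f1, Nanog and Sox2, had Pol2-S5p and Pol2-S7p on the promoter, 8 as Active and 2 as PRCa, and 0 of 8 fibroblast genes did. None of these genes had a region with Pol2-S7p alone.

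Small nuclear RNA genes, taken as 1 list of all annotated entries, were touched at about the rate of other short genes. Serine 7 phosphorylation has its best known role at such genes, but the entries were not split by that role. Of 1383 annotated small nuclear RNA genes 4 were touched (0.289%, 0.0789 to 0.739%), beside 0.392% of all genes shorter than 1 kb. The regions at Gm25257 and Gm25078 were 99.5% and 100% repeat-masked, and those at Gm24464 and Gm22060 14.2% and 19%. Of 1507 small nucleolar RNA genes 4 were touched, and of 2202 microRNA genes 10. Among these 10, Mir302a, Mir302b, Mir302c, Mir302d and Mir367 were touched by the same region. A Pol2-S7p region of any kind touched 244 of the small nuclear RNA genes (17.6%) and a Pol2-S5p region 272 (19.7%). Of the 244 with Pol2-S7p of any kind, 38 had no Pol2-S5p. For small nucleolar RNA genes these counts were 28 of 400, and for microRNA genes 42 of 832. Of the genes for Integrator and the small nuclear RNA activating complex, 5 of 19 (26.3%, 9.15 to 51.2%) were touched. Beside this stand 2.79% of protein-coding genes and 3.8% of those with an Active promoter. All 19 held Pol2-S5p and Pol2-S7p regions of some kind. This was 1 of 16 gene lists, and gene length was not matched. The 5 touched genes, all with an Active promoter, were Ints8 with a score of 12.6, Snapc3 with 11.98, Ints12 with 10.5, Ints6 with 5.60 and Ints4 with 5.52. Of 19 kinases, cyclins and phosphatases of the C-terminal domain, 2 were touched. These were Ccnh (10.6), the cyclin of the kinase that phosphorylates serine 5 and serine 7, and Cdk12 (8.19), a kinase of elongating polymerase. Of 18 cleavage and polyadenylation factors, 1 was touched, Fip1l1 (5.21). Polymerase II subunits (0 of 13) and ribosomal proteins (0 of 83) were not touched.

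Among the other lists, 30 of 394 zinc finger genes named Zfp (7.61%) were touched, beside 2.79% of protein-coding genes. The highest scores were 32.5 at Zfp989, 27.5 at Zfp987, 27.1 at Zfp990, 25.6 at Zfp600, 24.6 at Zfp773, 20.7 at Zfp995, 19.2 at Zfp981 and 19 at Zfp985. Zfp989, Zfp987, Zfp990, Zfp600, Zfp981 and Zfp985 lay in 1 stretch of chromosome 4, described below, and are not separate cases. Of 67 histone genes 1 was touched, Hist1h2bc (9.98), although all 67 held Pol2-S7p regions of some kind. Of 1135 olfactory receptor genes 1 was, Olfr814 (7.39). Of 329 vomeronasal receptor genes 3 were, Vmn2r58 (14.7), Vmn2r90 (14.7) and Vmn1r47 (10.9). None of these 3 held a Pol2-S5p region in the body. Of the stretches searched, 83.3% occur more than 1 time in the reference for the Vmn2r58 region and 100% for the Vmn1r47 region. The Vmn2r90 region had 0 such stretches and was 84.7% repeat-masked. Of 20 long neuronal genes 1 was touched, Cntnap2 (8.73), a gene for a cell adhesion protein of axons. Of 25 DNA repair genes 1 was, Brca1 (19.4).

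The cover of whole gene bodies by called regions is given here for touched genes. Each holds a Pol2-S7p region chosen for lacking Pol2-S5p, so part of any excess of Pol2-S7p cover is set by the rule. Smarca5, which encodes the ATPase of chromatin remodellers of the ISWI type, had 85.9% of its body in Pol2-S7p regions and 3.17% in Pol2-S5p regions. Its Pol2-S5p lay in 1 region at the start of the gene, from -0.702 to 1.298 kb, where Pol2-S7p had its own region with a score of 69.8. A second Pol2-S7p region with a score of 5.78 and no other mark began at 7.10 kb and ran to 47.1 kb, past the end of the gene at 41.0 kb. Fip1l1 had 54.2% in Pol2-S7p and 0.870% in Pol2-S5p, with 1 region of 19 kb. The pair of values was 40.6% and 3.63% for Cdk12, 51.4% and 8.45% for Ints6, and 20.7% and 1.88% for Ints12. Ints4 had 38.5% and 14.3%, Snapc3 69.6% and 33.9%, and Ints8 4.83% and 0.833%. Other genes went the other way. Becn1, with a region of 800 bp at its promoter, had 2.98% of its body in Pol2-S7p and 60.3% in Pol2-S5p, Ccnh had 5.26% and 7.61%, and Ppp2r2b 0.711% and 1.52%. Ube2q2, a gene for a ubiquitin-conjugating enzyme, had 55.1% and 10.5%, and Odr4 30.1% and 1.51%.

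**Figure D4:**
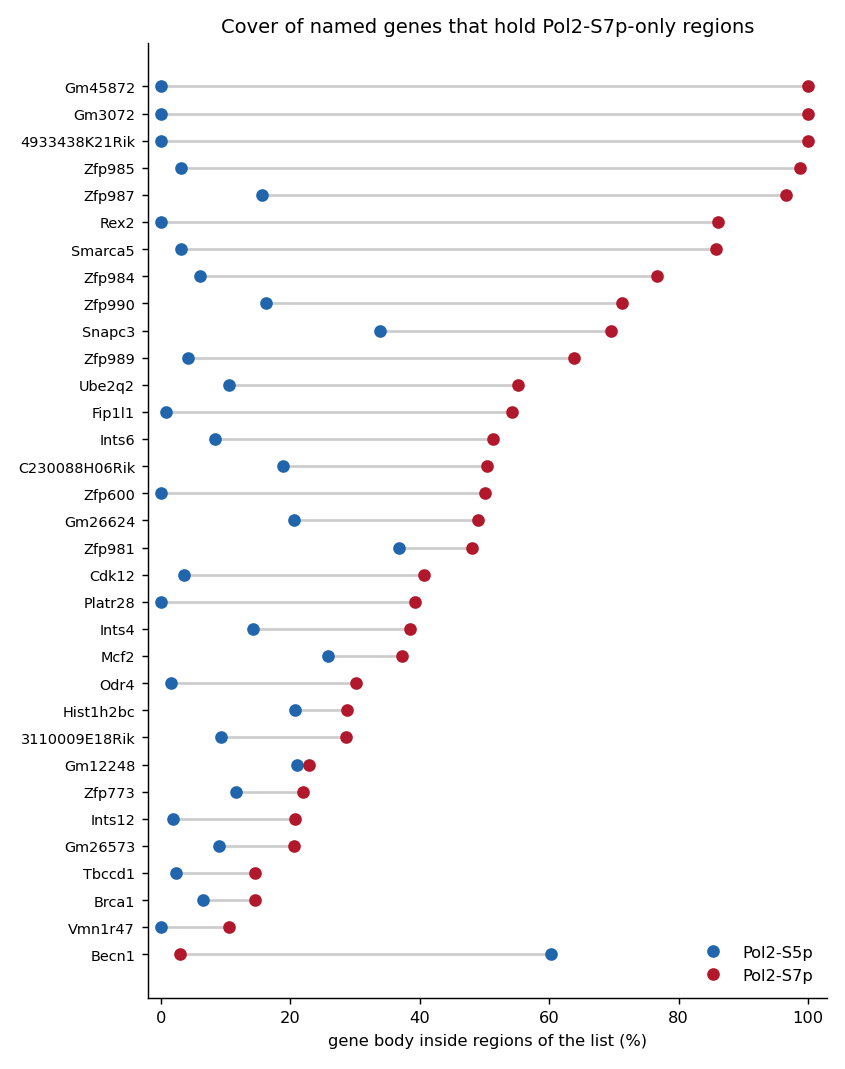
Share of the gene body (horizontal axis, percent) in Pol2-S5p regions (blue) and in Pol2-S7p regions (red) for the named genes that hold a region in the body or within 1 kb and have at least 10% of the body in either list. Each line joins the 2 values of 1 gene. Part of any excess of Pol2-S7p is set by the rule that chose the regions. Smarca5 stands at 3.17% and 85.9%, Rex2 at 0 and 86.1%, and Becn1, the other way, at 60.3% and 2.98%.

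Some genes had Pol2-S7p and no Pol2-S5p at all. With 1 kb on each side counted, 680 protein-coding genes held a region in question, and 64 of them (9.41%) held no Pol2-S5p region. Of 161 long noncoding RNA genes, 85 (52.8%) held none. Since the regions were chosen for lacking Pol2-S5p, these shares are set partly by the rule. Of all genes with any Pol2-S7p region, 155 of 14863 protein-coding genes (1.04%) and 243 of 4718 long noncoding RNA genes (5.15%) held no Pol2-S5p. Platr28, a noncoding RNA gene named for its link to pluripotency, held 5 regions over 57.4 kb, with 31.2 kb in all and scores from 7.37 to 10.2. Pol2-S7p covered 39.4% of its body, and it had no Pol2-S5p or H3K27me3. Rex2 had 2 regions of 21.4 kb each with scores of 23.4 and 19.6, and 86.1% of its body in Pol2-S7p. All stretches searched in both regions occur more than 1 time in the reference. The widest region, 51.6 kb with a score of 3.93, covered the whole of Gm3072 and lay in sequence with several copies in the reference. Gm45872 was covered whole by the region of Smarca5, and 4933438K21Rik by the second region of Rex2, neither with Pol2-S5p.

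**Figure D5:**
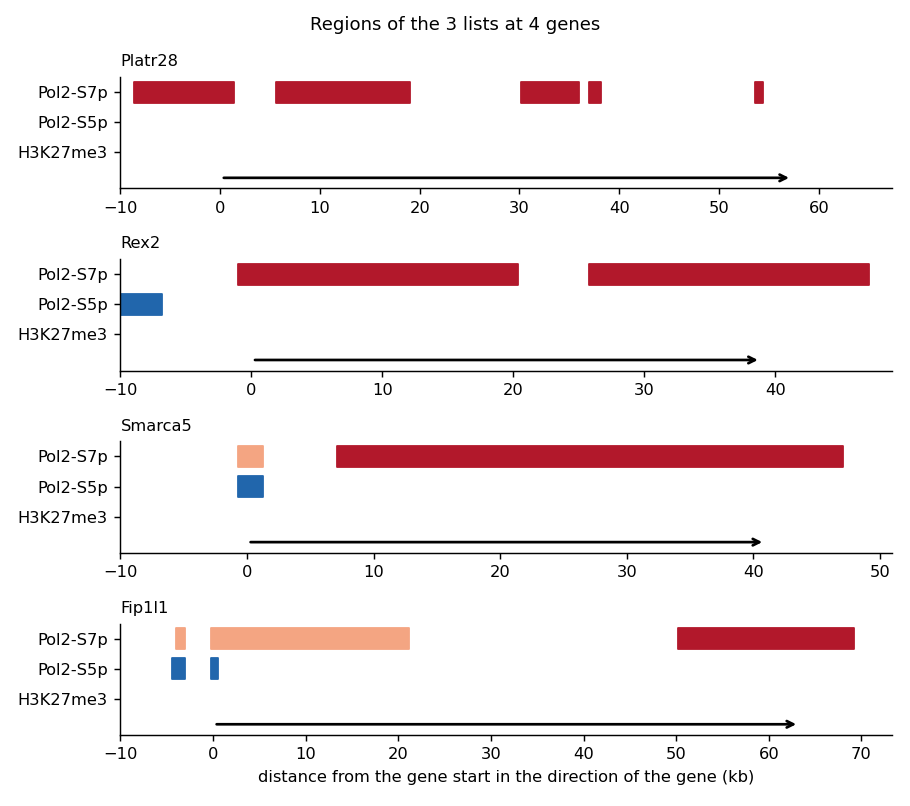
Regions of the 3 marks at Platr28, Rex2, Smarca5 and Fip1l1, chosen after their values were seen, against distance from the gene start in kb (horizontal axis, in the direction of transcription); arrows mark the genes. Dark red blocks are Pol2-S7p regions with no other mark, light red other Pol2-S7p regions and blue Pol2-S5p regions. Platr28 and Rex2 carry no Pol2-S5p in the gene or within 1 kb, and at Smarca5 it sits at the start. The blue block upstream of Rex2 ends at -6.85 kb.

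The widest regions after those of Gm3072 and Smarca5 lay over Mcf2 (34 kb), near Slc2a12 at a distance of 31211 bp (30.6 kb), over Ube2q2 (28.2 kb) and near Zfp42, a marker of the pluripotent state, at 45019 bp (22.8 kb, score 10.2). The highest scores were 52.4 in an intron of Ppp2r2b, a gene for a phosphatase subunit, and 43.0 on chromosome 16, where the nearest gene, Gm35912, was 106874 bp away. In each of these regions 66.7% of the stretches searched occur more than 1 time in the reference. A region in Tbccd1 had 38.0. A region at 152477 bp from its nearest gene, Gm26804, had 33.2, and 100% of its stretches occur more than 1 time. Regions at or before the promoters of the next genes were lower, namely Zfp989 with 32.5, Fbxw10 with 32.1, Apela with 31.5 and the autophagy gene Becn1 with 31.0. The promoter of Apela carried Pol2-S7p alone, although 69.3% of its body lay in Pol2-S5p regions. Upstream of a start, the next highest scores after that of Apela were 29.1 at BC018473, 24.5 at Gm11195, 24.4 at Gm2007 and 23.8 at Trpc7, a gene for a cation channel with a PRCr promoter. With each body region given to 1 host, the genes with most were Platr28, Gm26573 and 3110009E18Rik with 4 each. C230088H06Rik, Odr4, Tbccd1 and the cadherin gene Cdh6 had 3 each. With all regions in the body or within 1 kb counted, also those given to other genes, Gm26573 held 11 and C230088H06Rik 5. Of the 47 genes with 2, those with the longest regions were Ints6, Snapc3 and Aoah. The scores of the regions given to the host were low at 3110009E18Rik, from 3.604 to 5.166, and high at C230088H06Rik, from 24.6 to 31.4. Pol2-S7p covered 28.7% of the former and Pol2-S5p 9.27%, and 50.3% and 18.9% of the latter.

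A promoter with Pol2-S7p and neither other mark was found at 281 of 35312 protein-coding and long noncoding RNA genes (0.796%). At 84 of the 281 (29.9%) the Pol2-S7p came from a region free of the other marks over its whole length. These were 34 protein-coding and 50 long noncoding RNA genes, and they held 78 distinct regions, of which 16 lay mostly in sequence with several copies. The protein-coding genes with the highest scores were Zfp989 (32.5), Fbxw10 (32.1), Zfp987 (27.5), Acbd7 (23.5), Rex2 (23.4), Zfp995 (20.7), Zfp985 (19), Rhbdl2 (18.3), Zfp984 (17.6) and Gm12248 (15.9). Zfp genes encode zinc finger proteins, many of which bind DNA, and 8 of the 84 were named Zfp. The Zfp list held 394 genes, beside the 35312 genes in all. Several of the 8 lay in the same stretch of chromosome 4, described next, and are not separate cases.

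Zfp989, Zfp987, Zfp985, Zfp984 and Rex2 lay in 1 stretch of chromosome 4, of 3 Mb, that held 24 of the regions among 68 Pol2-S7p regions (35.3%, 24.1 to 47.8%), beside 6.71% over the genome. The stretch was chosen after its values were seen. Its regions were wide, with a median of 5700 bp and a summed length of 207 kb, and scored from 11.2 to 32.5 with a median of 21.5, near the 23.3 of the other Pol2-S7p regions there. Pol2-S7p covered 1084 kb of the stretch, Pol2-S5p 548 kb and H3K27me3 90.8 kb. Of its 31 protein-coding genes 18 were named Zfp, and 12 promoters carried Pol2-S7p alone, 10 of them of Zfp genes. The body cover by Pol2-S7p and Pol2-S5p was 98.8% and 3.13% for Zfp985, 96.6% and 15.7% for Zfp987, 76.7% and 6.09% for Zfp984, 63.8% and 4.26% for Zfp989 and 50.0% and 0 for Zfp600. The forms were closer at Zfp990, with 71.2% and 16.2%, and at Zfp981, with 48.2% and 36.9%. Of the 24 regions, 13 lay mostly in sequence found more than 1 time in the reference. The part of multiple mapping in these values was not tested.

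Of the 460 regions away from genes, 35.4% lay mostly in sequence with several copies, and of all 1498, 19.2% (288) did. Over all Pol2-S7p regions the share was 20.2%, with 25.3% for those with Pol2-S5p, 12.5% with both marks and 38.7% with H3K27me3 alone. It was 28.15% for Pol2-S5p alone. Away from genes the share was higher in the other groups, at 61.96% with Pol2-S5p, 48.3% with both marks, 51.95% with H3K27me3 alone and 40.9% for Pol2-S5p alone. Only 34 (7.39%) overlapped a gene of another type in the annotation, 18 of these a processed pseudogene. Over all 1498 regions, GC content had a median of 43.8%, against 48.3% with Pol2-S5p, 44.5% with H3K27me3 alone and 48.7% for Pol2-S5p alone. The median ratio of observed to expected CpG was 0.183, against 0.314, 0.206 and 0.249 in the same order. Repeat-masked bases made up most of 525 regions (35.05%), against 26.8% with Pol2-S5p, 51.2% with H3K27me3 alone and 47.5% for Pol2-S5p alone. CpG-rich sequence, with at least 50% GC and a ratio of at least 0.6, made up 16 regions (1.07%). The share was 12.2% with Pol2-S5p, 27.1% with both marks, 2.57% with H3K27me3 alone and 3.87% for Pol2-S5p alone. The 16 included the promoter of Becn1 and a region of 400 bp in Fgfr2, a growth factor receptor gene, with a score of 16.98.

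In the middle 200 bp, tandem repeats, where at least 50% of 12-base words recur, were present in 97 regions (6.48%, 5.28 to 7.84%), against 1.91% with Pol2-S5p, 4.51% with both marks, 21.7% with H3K27me3 alone and 6.77% for Pol2-S5p alone. Their median score was 8.90, against 6.98 for the others. Motifs were searched in the same windows on both strands. GGGCGG, the GC box, was present in 3.54% of the regions and in 16.7% of all Pol2-S7p regions. TATAAA was present in 12.8% and 8.02%, AATAAA, the polyadenylation signal, in 22.2% and 14.8%, and AAGGTCA, an element read by Esrrb, in 2.27% and 2.80%. ATGCAAA, the larger part of the octamer that POU factors such as Pou5f1 bind, was present in 6.34% and 2.78%. Among Pol2-S7p regions with H3K27me3 alone, GGGCGG was present in 2.57% and ATGCAAA in 6.32%, near the shares of the regions. In that group TATAAA was present in 7.51%, AATAAA in 17.2% and AAGGTCA in 3.95%. For Pol2-S5p alone, GGGCGG was present in 8.93% and ATGCAAA in 3.19%. In windows of 40% to 50% GC with single-copy and mostly unmasked sequence, chosen after the values were seen, TATAAA was present in 11.3% of the regions and 12.2% of those with Pol2-S5p, and AATAAA in 21.01% and 21.4%. In these windows ATGCAAA was present in 18 of 476 (3.78%, 2.26 to 5.91%), against 4.09% with Pol2-S5p and 4.68% for Pol2-S5p alone. In masked or multicopy windows it was present in 60 of 590 (10.2%, 7.85 to 12.9%), against 1.66%, 2.85% and, with H3K27me3 alone, 9.22%.

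A single region held hairpins of the miR-302 and miR-367 cluster, whose microRNAs mark pluripotent cells. Of 1005 RefSeq hairpins, 2 lay within one of the 1498 regions, Mir302d and Mir367, both in 1 region of 1000 bp (chr3:127545600-127546599) with a score of 10.2. It touched a promoter window of Larp7, which encodes a protein that binds the 7SK RNA. The hairpins of Mir302a, Mir302c and Mir302b lay 36, 170 and 299 bp outside the region. The nearest other Pol2-S7p region was 6200 bp away and the nearest Pol2-S5p region 5800 bp. The mature sequences are shown, from RefSeq, with the seed (bases 2 to 8) in capitals.
mmu-miR-302d-3p: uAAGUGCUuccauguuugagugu
mmu-miR-302b-3p: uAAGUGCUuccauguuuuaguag
mmu-miR-302c-3p: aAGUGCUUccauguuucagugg
mmu-miR-367-3p: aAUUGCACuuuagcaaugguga
The printed miR-302d and miR-302b share the seed AAGUGCU, and that of miR-302c starts 1 base later in the same stretch. The seed of miR-367 was another.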

How the data were processed

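Chromatin immunoprecipitation sequencing of F123 cells gave 3 libraries, 1 per mark. The authors mapped reads of 75 bp to mm10, masked at strain variants, using Bowtie2 2.3.4.3, and regions were called by the authors with the BCP peak finder. The deposited score of each region has no stated unit and was compared only within a list. The deposited width, a value of the kind other, is a multiple of 200 bp. Multiply mapping reads may place signal in any copy of a repeat.

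Regions were set against GENCODE M21 on GRCm38 in Python 3.11.15 with NumPy 2.4.6 and SciPy 1.17.1. Overlap was counted from 1 bp, and the start with the most Pol2-S5p, then Pol2-S7p, gave the promoter state. A region was multicopy where at least 50% of 6 stretches of 75 bases in its middle 200 bp occur more than 1 time in the reference. Functions were tested on simulated data. Members and lists were chosen with earlier results of these data known. Named genes were those at the 10 widest and 10 highest-scoring regions, those with most regions, 10 protein-coding promoters, and up to 8 touched genes per list. Alternatives changed the rule, windows and filters.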

Additional observations from a re-analysis of the deposited data

How the results depend on the processing

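Of 119 values recomputed, 67 stayed within the interval of the value reported (within 1.5 times for the number of regions) and 52 did not. Scores have no stated unit, depth was not used here, and with 1 library per mark no spread between samples exists. No paired analysis was possible because each mark had 1 library. The alternatives on copies, chromosome Y and chromosome 4 were chosen after seeing the data.

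With the rule at under 50% cover, 3639 regions were found, with 28.9% at promoters, 29.5% in bodies, 8.66% after ends, 19.8% near another region, 41.8% in Active hosts, 40.5% mostly repeat-masked, a median score of 9.11 and a CpG ratio of 0.258. With scores above the Pol2-S7p median, 194 were left, with 12.9% at promoters, 9.28% after ends, 27.8% elsewhere, 21.7% near, 22.9% in the last part of the host, 30.4% masked, a score of 16.2 and a ratio of 0.221. With the other lists kept above their medians, the values were 8017, 35.5% at promoters, 29.4% in bodies, 9.68% after ends, 22.5% elsewhere, 38.2% in the last part, 18.8% masked, 8.59 and 0.238. Over 600 bp, 11.3% lay at promoters, 27.3% elsewhere and 54.1% in Active hosts, and 29.7% were masked. With only the Pol2-S5p list required to be absent, 39.4% lay in bodies, 34.5% elsewhere, 22.4% near and 41.8% in Active hosts, and 39.1% were masked. Without multicopy regions, 46.3% lay in bodies, 24.5% elsewhere and 28.5% near, and 24.96% were masked; without chromosome Y, 32.2% were. With coding genes alone, 6.48% lay at promoters, 37.5% in bodies and 39.9% elsewhere. Placed by their middle, 5.54% lay at promoters and 17.4% after ends. With flanks of 5 kb, 10.8% lay after ends and 36.3% elsewhere. Near another region lay 23.1% with 1 kb kept free of the other marks, 15.7% for a gap of 2 kb and 52.0% for 20 kb. Unmasked bases had a ratio of 0.191.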

Other observations

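The regions were spread over all 21 chromosomes. They made up from 4.57% of Pol2-S7p regions on chromosome 4 to 8.15% on chromosome X among those other than Y, and 15.2% (64 of 421, 11.91 to 18.99%) on chromosome Y. The 64 on Y had a median score of 1.70, and 55 of them were multicopy. Of 2737 bins of 1 Mb, 1014 held a region, 682 held 1, and 31 held 4 or more.

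Some regions shared repeated words of 24 bases, chosen after the values were seen. Each word was picked by its count in the middle 200 bp of these same regions. An excess over other groups in that window is therefore set partly by the choice and is no finding. The first 2 hold ATGCAAA, in capitals, and the third is the word shared by the largest number of these middle windows.
word with 1411 copies in the reference: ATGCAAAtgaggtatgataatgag
word with 9978 copies: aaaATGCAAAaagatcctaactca
word with 12287 copies: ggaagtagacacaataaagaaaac
The first lay in the middle 200 bp of 19 regions (1.27%), against 4 (0.0343%) with Pol2-S5p and 10 (0.195%) for Pol2-S5p alone. Over whole regions it lay in 35 (2.34%), against 67 (0.574%) with Pol2-S5p. The second lay in the middle of 15 regions and 6 with Pol2-S5p, but over whole regions in 67 (4.47%) against 1426 (12.2%). The last lay in the middle of 25 (1.67%) against 26 (0.223%), and over whole regions in 69 (4.61%), 48 of them away from genes, against 1541 (13.2%). Among the 506 Pol2-S7p regions with H3K27me3 alone it lay in the middle of 20 (3.95%) and over whole regions in 71 (14.03%). For the second and the last word the order against regions with Pol2-S5p therefore turned with the window searched. Whole regions differ in length, with a median width of 1200 bp against 2400 bp with Pol2-S5p.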
